A study of Mus musculus with 30 samples.

Results

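The 6 genes described here encode the chains of type IV collagen, and they were taken by symbol from the 41388 mouse genes of the deposited tables: Col4a1, Col4a2, Col4a3, Col4a4, Col4a5 and Col4a6. RNA was read in 20 libraries of 6 groups, and each library was a pool of RNA from 3 to 4 mice. Hepatocytes of 12-week-old mice, freed with 0.05% collagenase and kept overnight on collagen-coated dishes, gave 3 pools labelled A1cf_Tg/+ (Tg) and 3 of wild-type C57BL/6J. Livers of 12-month-old mice gave 4 pools labelled A1cf_Tg/+ beside 4 of wild-type C57BL/6J (6J), and 3 pools labelled A1cf_-/- (KO) beside 3 of wild-type C57BL/6NJ (6NJ). A further 10 libraries held RNA precipitated with A1CF, an RNA-binding cofactor of Apob mRNA editing, after crosslinking in Tg hepatocytes (CLIP).

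Type IV collagen is the network-forming collagen of basement membranes, the thin sheets of matrix beneath epithelia and around vessels. Its chains wind into trimers of fixed make-up: the Col4a1 and Col4a2 chains together form the widespread network, the Col4a3, Col4a4 and Col4a5 chains form the network of the kidney glomerulus, lung and inner ear, and the Col4a5 chain also joins the Col4a6 chain. In the liver the Col4a1 and Col4a2 chains lie along sinusoids, vessels and bile ducts, where stellate and endothelial cells are known sources, and they accumulate in fibrosis.

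The 6 genes stand as 3 pairs that are transcribed away from each other, and the coordinates below are those of GRCm38. Col4a1 (ENSMUSG00000031502, chr8:11198423-11312826, minus strand) and Col4a2 (ENSMUSG00000031503, chr8:11312805-11449287, plus strand) have start sites 21 bases apart, and their first exons share 22 bases. Col4a3 (ENSMUSG00000079465, chr1:82586921-82722059, plus strand) and Col4a4 (ENSMUSG00000067158, chr1:82448423-82586849, minus strand) have start sites 72 bases apart. Col4a5 (ENSMUSG00000031274, chrX:141475385-141689234, plus strand) and Col4a6 (ENSMUSG00000031273, chrX:141165403-141474076, minus strand) have start sites 1309 bases apart.

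The stretches beside the start sites of the first and the second pair are shown because the 2 genes of each pair went broadly together across the libraries. The second pair did so less evenly, at much lower counts. Both come from RefSeq promoter windows on GRCm38.p6, which reach from 250 bases before to 50 bases after a gene's start and which held 5 of the 6 genes, Col4a3 being the one without an entry. The first stretch covers chr8:11312773-11312799 on the plus strand, 32 to 6 bases before the start of Col4a2 and within the Col4a1 gene, with a CCAAT motif and a CT run in capitals. The second is the whole of the 71 bases that separate the starts of Col4a3 and Col4a4, chr1:82586850-82586920 on the minus strand, with its 2 CpG dinucleotides in capitals.
Col4a2 start: CCAATttgttggcgctgccCCCTCCCC
Col4a3 and Col4a4 gap: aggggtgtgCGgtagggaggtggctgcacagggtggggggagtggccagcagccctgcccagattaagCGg
Over the full windows, G and C made up 73.7% of the Col4a2 window and 63.3% of the Col4a4 window, against a median of 52.7% over 32851 mouse windows. The ratio of observed to expected CpG was 0.818 at Col4a2 and 0.489 at Col4a4, with a median of 0.384. Searched on both strands, the GC box GGGCGG had 3 matches in the Col4a2 window, CCAAT had 1 and the CT run CCCTCCCC had 1, and these motifs are held by 35.7%, 37.4% and 10.8% of all windows. The TATA letters TATAAA, which 13.6% of windows hold, were found in neither window, and the Col4a4 window held none of the 4 motifs.

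Library totals ran from 17044839 to 37211328 counts. A1cf itself went against the Tg label: it stood at 9.23 ± 1.64 counts per 1000000 library counts (CPM; SD, n = 3) in Tg hepatocytes and 9.35 ± 2.51 (SD, n = 3) in wild-type hepatocytes, and it was lower in the livers labelled Tg than in 6J livers (log2 fold change -0.65 ± 0.11 SE, edgeR adjusted p = 0.0369). The direction of every Tg comparison below therefore rests on the labels, which name no promoter for the transgene. In KO livers A1cf fell by 3.12 on the log2 scale (edgeR adjusted p = 1.59e-05). Summed CPM of 10 hepatocyte markers was 38000 to 50200 in Tg and 39100 to 45000 in wild-type hepatocytes, so the plated cells carried these transcripts. In livers the sum was higher, from 70500 CPM in a KO pool to 111000 in a 6J pool. One 6J pool, replicate 2, held 1860 CPM of skeletal muscle markers, and the calls of the Tg liver comparison are given with and without it. In bulk RNA, fewer cells of a type and less RNA per cell cannot be told apart. Nothing says that the pools hold different mice, so the p-values measure the spread between pools.

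Col4a1 and Col4a2 supplied most type IV collagen RNA in each of the 20 libraries, from 90.9% to 98.4% of it, and Col4a6 supplied the least. Compared per length, as the deposited RPKM, which is CPM divided by the gene's length in kilobases, Col4a1 and Col4a2 together made up 97.9% of the summed RPKM of the 6 genes in Tg hepatocytes, 97.9% in wild-type hepatocytes, 98.0% in KO livers, 97.2% in 6NJ livers, 94.6% in Tg livers and 93.8% in 6J livers (means over pools). The sum itself was 119 ± 16.2 RPKM (SD, n = 3) in Tg hepatocytes and 44.0 ± 17.3 (SD, n = 3) in wild-type hepatocytes. In livers it was 49.0 ± 14.6 (SD, n = 4) in the Tg group, 15.2 ± 1.56 (SD, n = 4) in 6J, 27.3 ± 2.32 (SD, n = 3) in KO and 19.3 ± 4.49 (SD, n = 3) in 6NJ. Col4a3 and Col4a4 together made up 0.267% of the sum in wild-type hepatocytes and 0.853% in Tg hepatocytes, as means that were not tested. In 6J livers the same pair made up 2.70%.

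**Figure D1:**
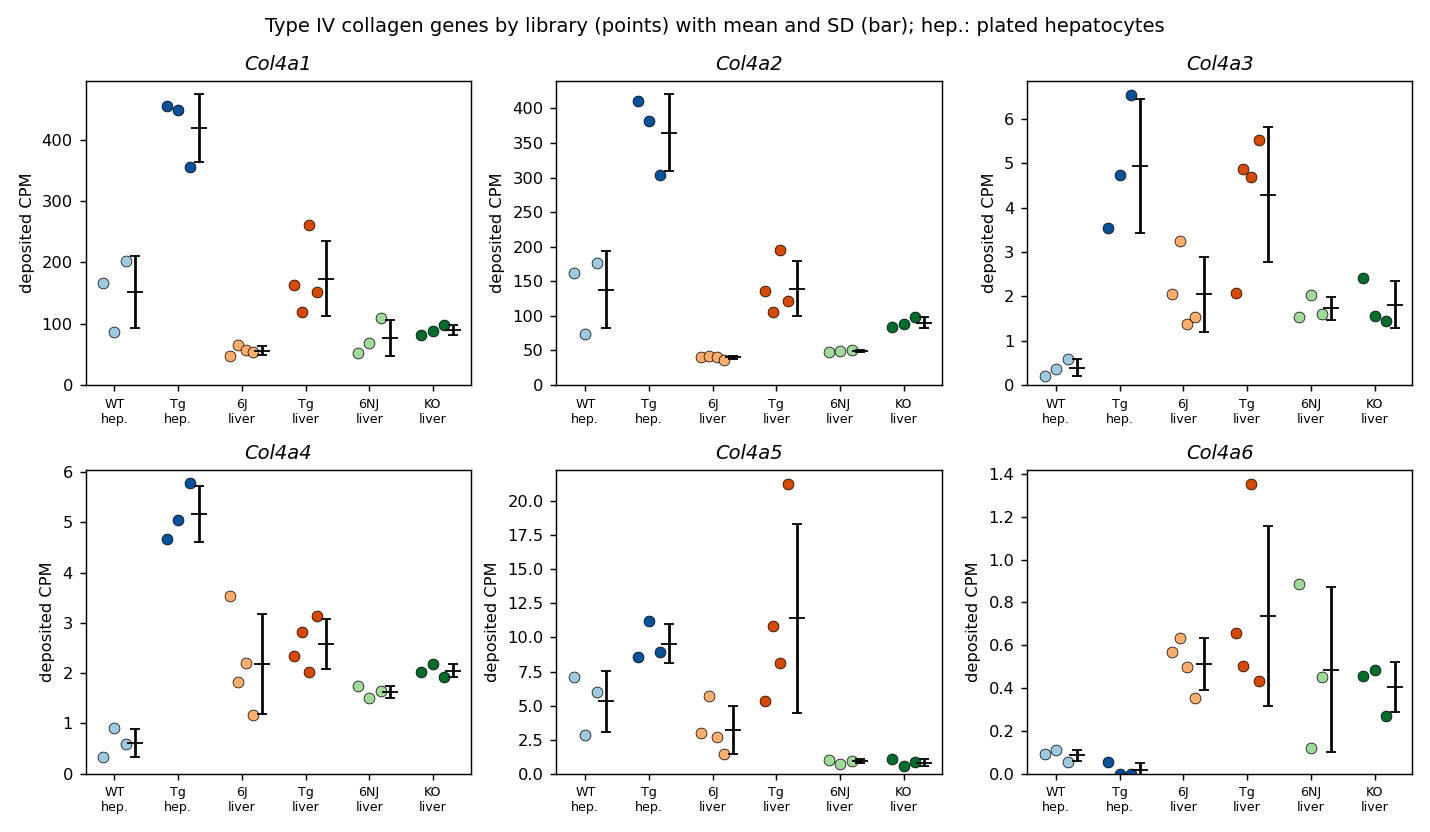
Deposited CPM of each type IV collagen gene (vertical axis, from 0, with its own scale in each panel) in the 20 RNA libraries by group (horizontal axis). Each point is a library and each bar the mean with its SD. Tg hepatocytes lie above wild-type hepatocytes for Col4a1 to Col4a5, and Tg livers lie above 6J livers for Col4a1 and Col4a2.

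The order of the groups differed between the pairs. For Col4a1 the group means ran from 55.9 CPM in 6J livers through 76.7 in 6NJ, 89.5 in KO, 152 in wild-type hepatocytes and 174 in Tg livers to 420 in Tg hepatocytes, and neighbouring groups overlapped except at the last step. Col4a2 followed the same order, from 40.1 CPM in 6J livers to 365 in Tg hepatocytes, with overlap between KO livers, wild-type hepatocytes and Tg livers only. For Col4a3 and Col4a4 the lowest group was instead wild-type hepatocytes, at 0.388 and 0.611 CPM, below every liver pool. Col4a5 was lowest in KO and 6NJ livers, at 0.816 and 0.901 CPM, which overlapped each other and lay below each of the other 14 libraries. Strain, age and plating differ between these sets, and the 2 liver sets were sequenced as separate studies, so levels across them are descriptions without a test.

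The Tg label in plated hepatocytes asks how these genes differ from wild-type cells cultured alike. Col4a3 and Col4a4 rose 12.9-fold and 8.61-fold, from a level near the limit of detection. Col4a1 and Col4a2 had estimates of 2.85-fold and 2.74-fold with no overlap between groups, but did not pass the threshold. Of the 5 genes that could be tested, 2 were called, both higher, where 3.15% of the 13770 genes tested were called in either direction and 1.53% were called higher. Groups did not overlap, with Tg higher, for 5 of the 5, against 16.5% of all genes tested. Col4a3 passed the filter on low counts through the Tg pools, and Col4a6 did not pass it.

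Col4a3, whose chain carries the antigen of Goodpasture disease, had 7, 13 and 21 counts in the wild-type hepatocyte pools and 132, 156 and 171 in the Tg pools. As CPM these were 0.210, 0.357 and 0.598 in wild type and 3.55, 4.75 and 6.54 in Tg. Each Tg pool thus lay several fold above the highest wild-type pool. The log2 fold change was 3.69 ± 0.42 (SE, edgeR quasi-likelihood adjusted p = 0.0148, 3 pools against 3). Its exons share 563 bases, 5.65% of its length, with the antisense gene C430014B12Rik, and since the strand setting of the counting is not given, reads there cannot be assigned with certainty. C430014B12Rik itself had 9 to 16 counts in the wild-type pools and 8 to 16 in the Tg pools, fewer than Col4a3 in each Tg pool.

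Col4a4, the partner chain of Col4a3, had 11, 33 and 21 counts in wild-type pools 1, 2 and 3 and 174, 166 and 151 in the Tg pools. The CPM were 0.330, 0.906 and 0.598 in wild type and 4.68, 5.05 and 5.78 in Tg, again with a wide gap between the groups. Its log2 fold change was 3.11 ± 0.37 (SE, edgeR adjusted p = 0.016). The calls depended on single pools. Col4a3 lost its call when Tg pool 1, Tg pool 2 or any 1 of the wild-type pools was left out, with log2 fold changes of 3.42 to 4.12 and edgeR adjusted p of 0.0504 to 0.0842. Col4a4 lost its call without Tg pool 1, Tg pool 2 or wild-type pool 3 (adjusted p = 0.0652, 0.0929 and 0.12), at log2 fold changes of 3.08 to 3.16. With replicate number as a block, Col4a4 had an adjusted p of 0.0547 and Col4a3 kept its call.

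In hepatocytes the genes on either side of the Col4a3 and Col4a4 pair were not called. Mff, 2831 bases beyond the end of Col4a3, had a log2 fold change of -0.10 (edgeR adjusted p = 0.562), and Rhbdd1, 3057 bases beyond the end of Col4a4, had 0.09 (adjusted p = 0.598).

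Col4a1, a chain whose mutation causes small-vessel disease, had 166, 87.1 and 203 CPM in wild-type hepatocytes and 455, 448 and 356 in Tg hepatocytes. Col4a2, its partner, had 162, 73.7 and 177 CPM in wild type and 410, 381 and 303 in Tg. In both genes wild-type pool 2 was the lowest and Tg pool 3 the lowest of its group, and no wild-type pool reached a Tg pool. The log2 fold changes were 1.51 ± 0.31 for Col4a1 (SE, edgeR adjusted p = 0.0523) and 1.46 ± 0.33 for Col4a2 (adjusted p = 0.0657). Both passed without Tg pool 3 (edgeR adjusted p = 0.0175 and 0.0192) and with DESeq2 (adjusted p = 0.000199 and 0.00097), where 35.0% and 12.8% of all genes tested were called. Neither passed with any other single pool left out (edgeR adjusted p = 0.0642 to 0.206 and 0.0717 to 0.23). With replicate number as a block they did not pass either (adjusted p = 0.0768 and 0.0811).

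Col4a5, the chain shared by both minor networks and mutated in X-linked Alport syndrome, had 7.09, 2.83 and 6.01 CPM in wild-type and 8.55, 11.2 and 8.91 in Tg hepatocytes. The lowest Tg pool was just above the highest wild-type pool, and the log2 fold change of 0.88 ± 0.34 (SE) did not pass (edgeR adjusted p = 0.153). Col4a6, which pairs with Col4a5 in skin and smooth muscle, had 3, 4 and 2 counts in wild-type and 2, 0 and 0 in Tg pools. With so few counts Col4a6 was not tested in hepatocytes alone.

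The hepatocyte pools fall into 2 sets by the share of counts on mitochondrial genes: Tg 1, Tg 2 and wild-type 1 at 1.39% to 2.01%, and the other 3 at 3.14% to 3.71%. Within the low set Col4a3 was 4.15 CPM (mean of 2 Tg pools) against 0.210, and within the other set 6.54 against 0.477 (mean of 2 wild-type pools). Col4a4 was 4.86 against 0.330 and 5.78 against 0.752 in the same order. Tg was thus higher in each set, but each set held a single pool of 1 genotype, whose spread within the set is unknown. With the set as a block, 4 of the 5 genes were called: Col4a3 at 3.97, Col4a4 at 3.32, Col4a1 at 1.40 (edgeR adjusted p = 0.0149) and Col4a2 at 1.31 (adjusted p = 0.0199). In that fit 20% of all genes tested were called. The levels of other cells' markers stand beside this result. Of 14 stellate and fibroblast markers 6 were tested and 0 called, and their sum was 28.3 to 47.8 CPM in Tg against 14.7 to 24.2 in wild type. The 10 Kupffer and macrophage markers had 0 calls, with a sum of 307 to 610 CPM against 191 to 284. The 14 endothelial markers overlapped, at 71 to 95 CPM against 75.2 to 91.2, with 0 of 13 tested called. Of 6 adipocyte markers, Cidec (2.79) and Cfd (5.56, log2 fold change) rose, their sum was 21.8 to 49.4 CPM against 4.39 to 6.15, and Adipoq was at 0 in every pool. The 10 skeletal muscle markers summed to 17.1 to 46.5 CPM against 4.70 to 12.1, and Tnnt3, Myh4, Myh1, Pvalb and Tnnc2 were at 0. The 8 cholangiocyte markers summed to 475 to 728 CPM in Tg against 765 to 1290 in wild type. Of the 7 tested, 4 had estimates above 0 and Pkhd1 fell (-1.14, edgeR adjusted p = 0.0348). Vascular smooth muscle markers (166 to 271 against 212 to 241) and mesothelial markers (0.153 to 0.609 against 0.180 to 0.384) overlapped. None of the 4 smooth muscle markers tested was called, and no mesothelial marker was tested. The part of other cells in the hepatocyte result was not tested.

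**Figure D2:**
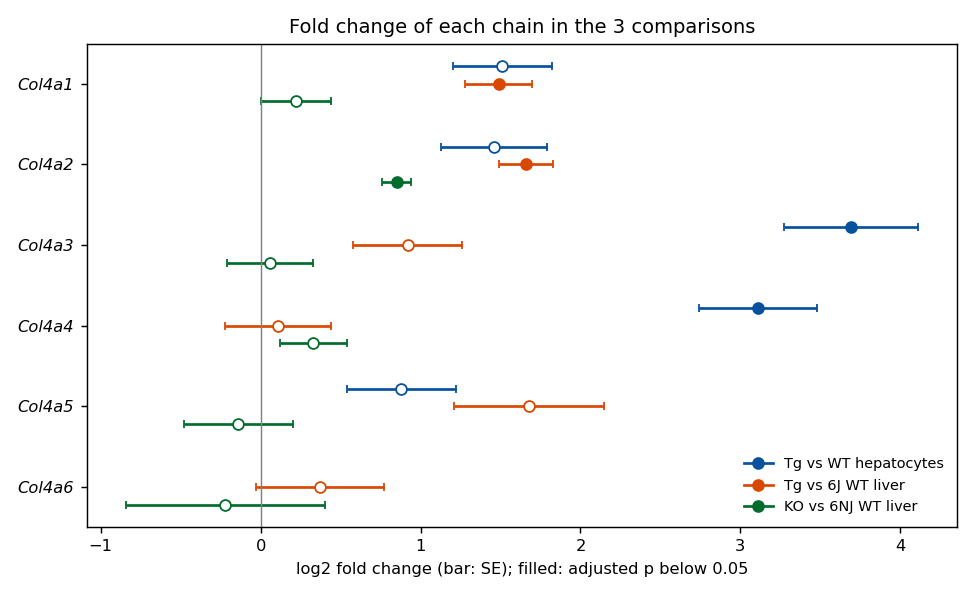
Log2 fold change (horizontal axis) of each type IV collagen gene (vertical axis) in the 3 comparisons, with SE bars, and filled points where the edgeR adjusted p is below 0.05. Filled points are Col4a3 and Col4a4 in hepatocytes, Col4a1 and Col4a2 in Tg livers and Col4a2 in KO livers. Col4a6 has no hepatocyte point.

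In livers labelled Tg, compared with 6J livers, the genes of the major network rose: Col4a1 2.81-fold and Col4a2 3.15-fold. Of the 6 genes 2 were called, both higher, while 1.33% of the 14110 genes tested were called in either direction and 0.971% were called higher. The groups did not overlap, with Tg higher, for those 2 of 6, against 6.41% of all genes tested.

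Col4a1 stood at 163, 119, 261 and 151 CPM in the Tg livers and at 48.2, 64.8, 57.2 and 53.4 in the 6J livers. Col4a2 stood at 137, 105, 195 and 121 CPM in Tg and at 40.9, 42.5, 40.6 and 36.3 in 6J. Tg pool 3 was the highest for both genes, and the lowest Tg pool exceeded the highest 6J pool. The log2 fold changes were 1.49 ± 0.21 (SE, edgeR adjusted p = 0.0188) and 1.66 ± 0.17 (adjusted p = 0.00435). Without the muscle-bearing 6J pool they were 1.53 and 1.66 and both passed, where 2.69% of all genes tested were called. Col4a1 lost its call without 6J pool 1, 3 or 4 (adjusted p = 0.0676, 0.0667 and 0.0821) and with replicate number as a block (adjusted p = 0.0612).

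Col4a5 had 5.35, 10.9, 8.16 and 21.3 CPM in Tg livers and 2.96, 5.69, 2.70 and 1.47 in 6J livers. Only the lowest Tg pool and the highest 6J pool crossed, and Tg pool 4 was the highest. Its log2 fold change of 1.68 ± 0.47 (SE) was as large as that of Col4a2 but did not pass (edgeR adjusted p = 0.102). DESeq2 gave Col4a5 an adjusted p of 0.0054, in a fit that called 1287 of 15312 genes tested. Without the muscle-bearing pool its log2 fold change was 2.07 (edgeR adjusted p = 0.0557). Col4a3 had 2.08, 4.87, 4.68 and 5.53 CPM in Tg and 2.05, 3.24, 1.38 and 1.53 in 6J livers, with 1 Tg pool among the controls (log2 fold change 0.92 ± 0.34, adjusted p = 0.182). Col4a4 had 2.35, 2.81, 2.03 and 3.15 CPM against 3.53, 1.82, 2.21 and 1.17, and its groups lay over each other (0.11 ± 0.33, adjusted p = 0.876). Col4a6 had 12, 10, 28 and 8 counts against 10, 16, 9 and 6 (0.37 ± 0.40, adjusted p = 0.638). Without the muscle-bearing pool Col4a3, Col4a4 and Col4a6 were at 1.20, 0.00 and 0.46, and none passed (edgeR adjusted p = 0.0837, 0.998 and 0.599).

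Some markers of fibroblast-type cells rose in the same livers. Of 14 stellate and fibroblast markers 3 rose: Cygb by 1.01, the receptor Pdgfrb by 0.86 and the matrix proteoglycan Lum by 1.74 (log2 fold change). The other 11 did not pass, and the summed level of the 14 was 666 to 886 CPM in Tg and 467 to 757 in 6J, with overlap. Their median was 0.29, and 12 of 14 estimates were above 0, with Lrat (-0.34) and Des (-1.79) below. Hepatocyte markers summed to 73600 to 86800 CPM against 105000 to 111000, with 0 of 10 called. Endothelial markers summed to 741 to 959 CPM against 712 to 755, with 0 of 14 called. Kupffer and macrophage markers summed to 420 to 632 CPM against 263 to 505, and the 8 cholangiocyte markers to 99.2 to 185 against 78.3 to 100, with 0 called in both. Adipocyte markers summed to 45.5 to 92.6 CPM against 10.3 to 27.5 without overlap, with 0 of 3 tested called. Vascular smooth muscle (177 to 250 against 198 to 223) and mesothelial markers (6.24 to 9.95 against 4.05 to 17.7) overlapped, with 0 called. Skeletal muscle markers summed to 1.69 to 2.21 CPM in Tg and 1.94 to 1860 in 6J, with 0 of 2 tested called. No marker of these 9 lists was at 0 in every liver. Without the muscle-bearing pool Cygb, Pdgfrb and Lum were at 1.06, 0.93 and 2.19, all 3 passing. The fibroblast receptor Pdgfra, the macrophage genes Vsig4, Cd5l and Csf1r, and Cfd passed as well (0.73, 0.96, 0.83, 0.81 and 4.25). These were 4 of 14 stellate and fibroblast, 3 of 10 macrophage and 1 of 3 adipocyte markers tested, where 2.69% of all genes tested were called. The others of these lists did not pass, among them Lrat (-0.34), Des (0.40) and the macrophage gene Marco (-1.73). The part of these cells in the rise of Col4a1 and Col4a2 was not tested.

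In livers labelled KO, Col4a2 rose 1.81-fold and its partner Col4a1 did not pass the threshold. This was 1 of 6 genes called, where 2.98% of the 15942 genes tested were called in either direction and 1.5% were called higher. Col4a2 had 83.9, 88.0 and 98.7 CPM in KO livers and 48.4, 49.7 and 50.9 in 6NJ livers, so both groups were tight and well apart. The log2 fold change was 0.85 ± 0.09 (SE, edgeR adjusted p = 0.00146). It kept its call without any 1 pool and lost it in a fit over all 6 RNA groups (0.88, adjusted p = 0.305). Irs2, the nearest protein-coding gene beyond the end of Col4a1 at 189965 bases, rose too (0.58, edgeR adjusted p = 0.0471). Rab20, 4105 bases beyond the end of Col4a2, did not pass (0.29, adjusted p = 0.348).

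Col4a1 had 82.1, 87.7 and 98.7 CPM in KO livers and 51.8, 69.1 and 109 in 6NJ livers. The KO values were nearly those of Col4a2, whereas the 6NJ pools spread from below to above the KO range. The log2 fold change was 0.22 ± 0.22 (SE, edgeR adjusted p = 0.649), and it was 0.55 without 6NJ pool 3 and 0.01 without 6NJ pool 1. Col4a3 (74, 45 and 43 counts against 40, 69 and 57), Col4a5 (1.05, 0.556 and 0.846 CPM against 1.00, 0.737 and 0.961) and Col4a6 (14, 14 and 8 counts against 23, 4 and 16) overlapped between groups. Their log2 fold changes were 0.06, -0.14 and -0.22 (edgeR adjusted p = 0.939, 0.87 and 0.887). Col4a4 had 2.03, 2.19 and 1.93 CPM in KO against 1.74, 1.5 and 1.64 in 6NJ, without overlap, and its 0.33 ± 0.21 did not pass (adjusted p = 0.461). Col4a2 and Col4a4 were thus the 2 of 6 genes with KO above 6NJ in all pools, against 11.6% of all genes tested.

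Markers of other cells moved in these livers too. All 8 of the tested skeletal muscle markers rose in KO livers, their sum being 18.8 to 98.8 CPM against 0.531 to 1.05, with Tnnc2 at 0 in every pool. Stellate and fibroblast markers summed to 506 to 511 CPM against 400 to 435, and endothelial markers to 739 to 748 against 639 to 703, in both cases with 0 of 14 called and no overlap. The 6 adipocyte markers summed to 119 to 243 CPM against 22.5 to 76.7, and Cfd alone rose. Other lists were lower or overlapped. Cholangiocyte markers summed to 67.0 to 70.3 CPM against 74.4 to 116 without overlap, with 0 of 7 called. Hepatocyte markers summed to 70500 to 75400 CPM against 75000 to 83100, and the urea cycle enzyme Cps1 fell (-0.66, edgeR adjusted p = 0.0193). Kupffer and macrophage (321 to 370 against 316 to 444), vascular smooth muscle (172 to 187 against 176 to 191) and mesothelial markers (8.49 to 10.3 against 5.66 to 10.0) overlapped, with 0 called. The part of these cells in the Col4a2 result was not tested.

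Whether the response to the Tg label differed between plated hepatocytes and whole liver was tested as a contrast of 4 groups. Both Col4a3 and Col4a4 responded less in liver, by -2.94 ± 0.54 (SE, edgeR adjusted p = 0.0311) and -3.19 ± 0.51 (adjusted p = 0.0204) on the log2 scale. They were 2 of the 6 genes tested, where 0.842% of 15565 genes were called in either direction and 0.45% were called lower. Col4a3 lost this call without any 1 of 10 of the 14 pools (all but hepatocyte Tg pool 3, Tg liver pools 1 and 2 and 6J pool 2), at edgeR adjusted p of 0.0543 to 0.0887. Col4a4 lost it without hepatocyte Tg pool 1 or 2, wild-type hepatocyte pool 3 or 6J pool 3 (adjusted p = 0.0554 to 0.0691). For Col4a2 the difference was 0.01 ± 0.39 (adjusted p = 0.995) and for Col4a1 -0.21 ± 0.40 (adjusted p = 0.759), so neither was shown to differ between the tissues. Col4a5 differed by 0.62 ± 0.65 and Col4a6 by 1.98 ± 1.02, neither of which passed (adjusted p = 0.566 and 0.257). The Col4a6 value was 4.39 without hepatocyte Tg pool 1, the one Tg hepatocyte pool with counts of it (adjusted p = 0.201). The hepatocytes and livers also differ in age and in plating, which cannot be told apart from the tissue.

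Between the 2 liver comparisons, each with its own wild type, none of the 6 genes passed the test of the difference (edgeR), where 1.02% of 16295 genes did. An unadjusted p below 0.05 was found for 2758 of those 16295 genes. Of the 6 genes, those with unadjusted p below 0.05 were Col4a1 (Tg effect minus KO effect 1.25 ± 0.34, p = 0.00265, adjusted p = 0.0903), Col4a2 (0.79 ± 0.21, p = 0.00243, adjusted p = 0.0878) and Col4a5 (1.81 ± 0.66, p = 0.0156, adjusted p = 0.185). Without Tg pool 2 the first 2 passed (adjusted p = 0.0445 and 0.032), and without 6NJ pool 1 Col4a1 passed (adjusted p = 0.0489). Over all genes, the fit without Tg pool 2 called 230 higher and 165 lower of 16466. The fit without 6NJ pool 1 called 130 higher and 75 lower of 16558, and the main fit called 100 higher and 67 lower.

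The genes of each close pair were compared within libraries, where scaling cancels. The ratio of Col4a1 to Col4a2 counts was 1.03 to 1.18 in wild-type and 1.11 to 1.17 in Tg hepatocytes. It was 1.18 to 1.53 in 6J and 1.13 to 1.34 in Tg livers. In KO livers it was 0.978 to 1.00, whereas the 6NJ pools had 1.07, 1.39 and 2.15. Thus each KO pool had a lower ratio than each 6NJ pool, and 6NJ pool 3 had the highest ratio of the 20 libraries. The mean log2 ratio differed by 0.05 between the hepatocyte groups (two-sided exact permutation test, p = 0.7, with 0.1 the smallest p possible), by -0.18 between Tg and 6J livers (p = 0.143, smallest possible 0.0286) and by -0.57 between KO and 6NJ livers (p = 0.1, smallest possible 0.1). Col4a3 and Col4a4 were less even, with count ratios of 0.394 to 1.00 in wild-type hepatocytes, 0.759 to 1.13 in Tg hepatocytes and 0.884 to 2.31 in Tg livers. These ratios rest on fewer counts: Col4a3 had 7 to 21 and Col4a4 11 to 33 in the wild-type hepatocyte pools. No Col4a1 or Col4a2 count was below 619. The part of counting error in this spread was not tested.

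**Figure D3:**
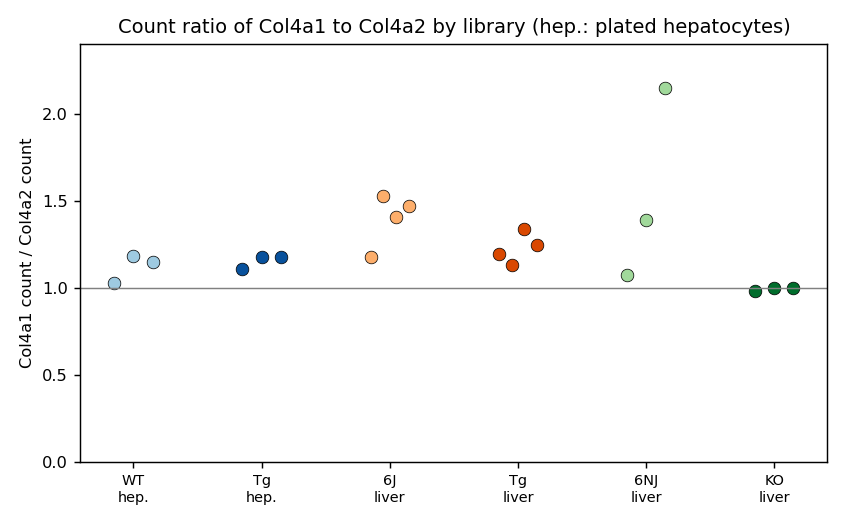
Ratio of Col4a1 to Col4a2 counts (vertical axis, from 0) in each RNA library by group (horizontal axis), with a line at 1. The 3 KO livers sit at 0.978 to 1.00, and the 3 6NJ livers at 1.07 to 2.15.

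**Figure D4:**
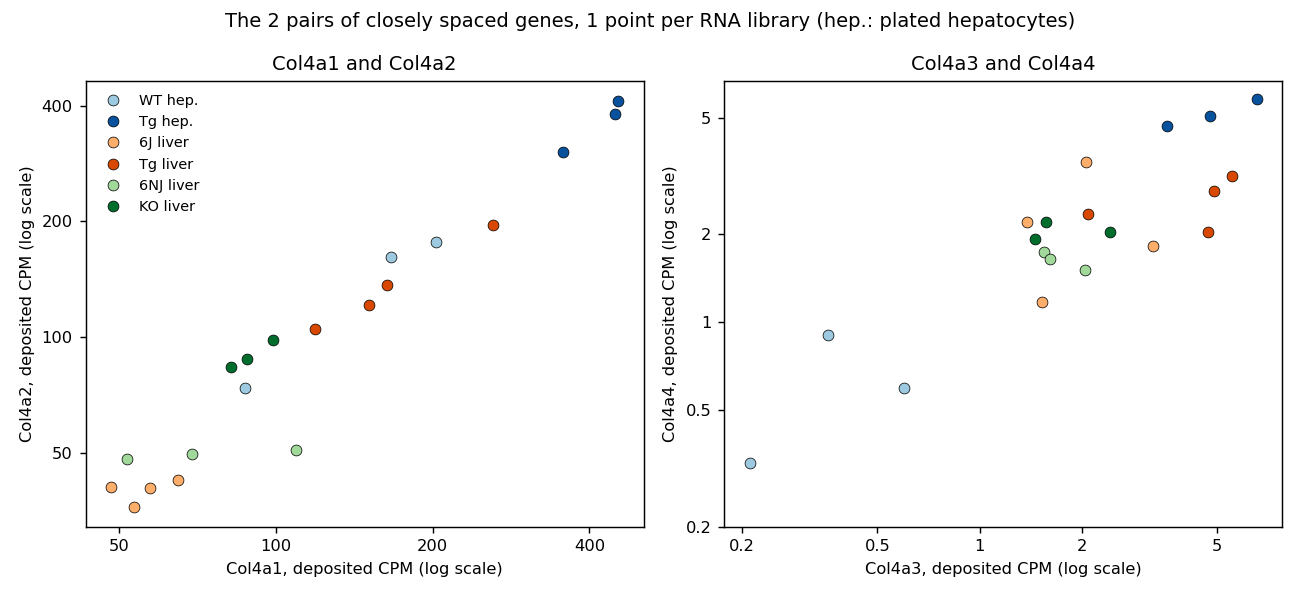
Deposited CPM of the 2 genes of each close pair against each other on log axes, 1 point per RNA library coloured by group. Col4a1 and Col4a2 lie near a line, with 6NJ pool 3 below it, and for Col4a3 and Col4a4 the wild-type hepatocytes form the low end and the Tg hepatocytes the high end.

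Likeness of pattern was measured as Pearson's r of log2(TMM-scaled CPM + 1) over the 20 RNA libraries, among 11905 genes of at least 2 CPM on average. The libraries fall into 6 groups of unlike tissue and share these group differences, so r is a description only. For Col4a1 the most alike gene was Col4a2 (r = 0.971), followed by the lysosomal protease legumain, Lgmn (0.944), St5 (0.934), Uap1l1 (0.923) and Gltp (0.921). For Col4a2 it was Col4a1, then Lgmn (0.95), Scamp5 (0.933), Uap1l1 (0.929) and Gltp (0.919). Col4a3 was most like the leukocyte adhesion receptor Adgre5 (0.882), then Slc15a3 (0.862), Tspan15 (0.853), P2rx7 (0.842) and Me2 (0.839), with Col4a4 at rank 6 (0.83). Col4a4 was also most like Adgre5 (0.877), then Col4a3 (0.83), Shf (0.769), Serpina3f (0.769) and Otub2 (0.761). Col4a5 was most like Zc3h12d (0.901), 4933431E20Rik (0.892), Ptpdc1 (0.891), Emp2 (0.891) and Gstm5 (0.886), and among the chains Col4a1 was nearest to it, at rank 694 (0.669). Col4a6 was below the 2 CPM minimum and was not ranked.

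Most other matrix genes of the pathway did not pass the test in hepatocytes, and those called went in both directions. Over all genes tested, 3.15% were called. Among 17 tested basement membrane partners (laminins, nidogens, perlecan and others) 1 rose and 1 fell, with a median log2 fold change of 0.01 against -0.02 over all genes. The laminin chain Lama5 rose from 7.27 ± 3.12 to 26.8 ± 5.39 CPM (SD, n = 3; 1.93 ± 0.35 SE, edgeR adjusted p = 0.0396), and nidogen Nid2, which links laminin to collagen IV, fell from 15.8 ± 0.487 to 5.47 ± 0.814 CPM (-1.50 ± 0.16, adjusted p = 0.0134). Perlecan, Hspg2, had 76.4 ± 35.9 CPM in wild type and 22.5 ± 2.00 in Tg without passing (adjusted p = 0.062). Of 21 biosynthesis and crosslinking genes, the collagen IV crosslinking peroxidase Pxdn rose (1.39 ± 0.25, adjusted p = 0.039) and the lysyl oxidase Lox fell (-2.40 ± 0.40, adjusted p = 0.0329), and the median was -0.09. The collagen chaperone Serpinh1 had 3.15 ± 0.637 CPM against 1.14 ± 0.424 and did not pass (adjusted p = 0.0668).

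Of 9 collagen receptors tested in hepatocytes, both subunits of one integrin fell: Itga1 by 1.13 and Itgb1 by 1.00 on the log2 scale (edgeR adjusted p = 0.0412 and 0.0473). None rose, 2 of 9 estimates were above 0, and the median of the list was -0.18. Of 14 proteases and inhibitors, the plasminogen activator Plat rose (2.18 ± 0.34, adjusted p = 0.0298) and the membrane metalloprotease Mmp14 fell (-0.97 ± 0.16, adjusted p = 0.0333), with 12 of 14 estimates above 0 and a median of 0.51. None of 10 other collagens and none of 15 TGF-beta pathway genes passed, with medians of -0.04 and -0.22. The smallest adjusted p among the other collagens was 0.0698, for Col27a1 at -1.95 ± 0.47.

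In Tg livers most matrix estimates were above 0, though most of these genes did not pass. Over all genes tested, 1.33% were called. Of 15 other collagens 13 had estimates above 0, with a median of 0.72 against a median of all genes of 0.00, and 1 rose, the microfibrillar collagen Col6a3 (1.03 ± 0.19, edgeR adjusted p = 0.0422). The fibrillar collagens Col3a1 and Col1a2 had 1.25 ± 0.30 and 1.40 ± 0.34 without passing (adjusted p = 0.0704 and 0.0764). Of 16 TGF-beta pathway genes 2 rose, the secreted matricellular factor Ccn2 (1.12 ± 0.20, adjusted p = 0.0369) and Tgfbi (0.83 ± 0.16, adjusted p = 0.0406). None of 20 basement membrane partners, 24 biosynthesis genes, 10 receptors and 14 proteases passed, with medians of 0.43, 0.30, 0.15 and 0.33. The elastase Mmp12 had 4.50 ± 1.18 (adjusted p = 0.0878), on 15.5 ± 24.8 CPM against 0.595 ± 0.272 (SD, n = 4).

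Without the muscle-bearing 6J pool more matrix genes passed in Tg livers, where 2.69% of all genes tested were called. Of the 15 other collagens 5 rose (Col3a1 1.43, Col5a2 1.71, Col1a2 1.73, Col6a2 1.19 and Col6a3 1.17) and Col27a1 fell (-1.5), with edgeR adjusted p of 0.0125 to 0.0464 and a median of 0.91. Ccn2 (1.06) and Tgfbi (0.92) passed there too, and so did Ltbp1, which binds latent TGF-beta (1.08), the laminin chain Lama2 (1.23), the lysyl oxidase relative Loxl1 (1.41), the metalloprotease Mmp2 (1.75) and the cathepsin Ctss (1.21). Mia2, a factor of secretory transport, fell (-0.66). No receptor passed in that fit.

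In KO livers 3 of 20 basement membrane partners were called: Lamb3 rose (0.98 ± 0.18, edgeR adjusted p = 0.0201), and Col15a1 and Lamc3 fell (-1.24 ± 0.18 and -0.83 ± 0.19, adjusted p = 0.007 and 0.0489). Of 14 proteases and inhibitors Mmp12 rose (1.55 ± 0.35, adjusted p = 0.0482). None of 25 biosynthesis genes, 11 receptors, 16 other collagens and 16 TGF-beta pathway genes passed. Over all genes tested in KO livers, 2.98% were called. The other collagens had a median of 0.57, with 15 of 16 estimates above 0 and the smallest adjusted p, 0.0506, for Col5a1.

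**Figure D5:**
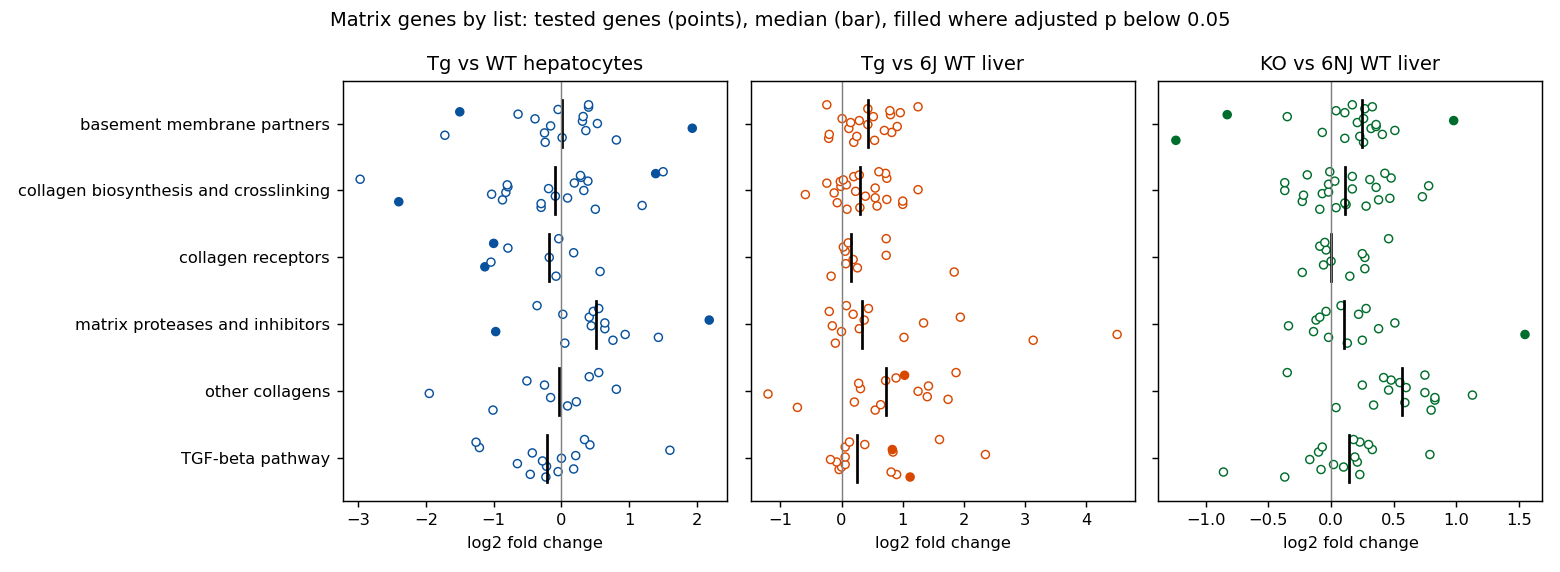
Log2 fold change (horizontal axis) of the tested genes of 6 matrix lists (vertical axis) in the 3 comparisons. Points are genes, filled where the edgeR adjusted p is below 0.05, and the black bar is the median of the list, which is 0.72 for the other collagens in Tg livers and -0.04 for them in hepatocytes.

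Few CLIP reads fell on the 6 genes. Of 80854 counts in the 10 libraries, which held 6151 to 10902 counts each, 13 lay on them: 8 on Col4a2, 2 on Col4a3, 1 each on Col4a1, Col4a4 and Col4a5, and 0 on Col4a6. The 8 counts of Col4a2 were spread over 5 libraries, and 652 genes had as many or more. With 3 counts as the limit that a count of 0 allows, a gene at 0 could hold 0.0275% of the deepest library and 0.0488% of the shallowest, for counting error only. These counts do not measure binding, because a control precipitate was not analysed here.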

How the data were processed

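Per the submitters' processing notes, bases were called with bcl2fastq, reads were aligned with STAR 2.0.4b to GRCm38 and counted per gene with featureCounts 1.45 of Subread. The annotation release, the strand setting and the handling of reads with several alignments are not given in the sources used here. The deposited count per gene was the tested unit. The deposited CPM, which the authors scaled to library totals, gave levels, and the deposited RPKM, CPM per kilobase, was used only between genes. Both were recomputed from the counts, with largest differences of 4.9e-10 and 1.6e-10. Symbols matched 40254 of 41388 identifiers.

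Each comparison was fitted on its own groups with edgeR 4.0.16 in R 4.3.3: filterByExpr (minimum count 10, minimum total 15), TMM scaling, the quasi-likelihood F-test, and Benjamini-Hochberg adjustment over all genes tested, with 0.05 as threshold. Ratios within a pair were tested by exact permutation (scipy 1.17.1). DESeq2 1.42.0, other scalings and filters, blocks and left-out pools were alternatives. Named genes were the 6 chains, A1cf, up to 4 genes of smallest p per pathway list, and the 5 most alike genes per chain with a mean of at least 2 CPM. Markers and neighbouring genes were named beyond this after their values were seen. The members and all lists were chosen with earlier results of these data known. RNA totals were 17044839 to 37211328 counts.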

Additional observations from a re-analysis of the deposited data

Results flagged for a closer look

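The response to the Tg label differed between tissues for 2 genes by the test of the difference itself (edgeR). The Tg log2 fold change in liver minus that in hepatocytes was -2.94 for Col4a3 (adjusted p = 0.0311) and -3.19 for Col4a4 (adjusted p = 0.0204). Both calls depended on single pools, and age and plating differ together with the tissue. In wild-type hepatocytes both genes were below every liver pool, and in Tg hepatocytes Col4a4 was above every liver pool while Col4a3 overlapped the Tg livers.

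CLIP library 1 held 4 counts of Col4a2, more than the 3 counts that a count of 0 allows. The other 9 libraries held 0 or 1. By the gap between its highest library and the next, divided by the range, Col4a2 (0.75), Col4a1, Col4a4 and Col4a5 (1 each) passed Dixon's criterion over the CLIP libraries, the last 3 with a single count in 1 library. A single count with all other libraries at 0 gives a ratio of 1 by construction, so the criterion cannot judge such counts. These were 4 of 19 groups examined, and the 14 groups of 4 livers gave 0.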

How the results depend on the processing

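For the 5 comparisons, the number of the 6 genes called and of all genes called changed with the fit. In hepatocytes 2 of the genes and 434 of all genes were called. DESeq2 gave 4 and 1816, no low-count filter 4 and 669, a fit over all 6 RNA groups 4 and 4323, and the mitochondrial pool set as a block 4 and 2750. Leaving out 1 pool gave 0 to 4 and 0 to 4934. In Tg livers (2 and 188) DESeq2 called 1287 genes, library totals alone 285, the fit over all groups 991 and the fit without the muscle-bearing pool 385. Leaving out 1 pool gave 1 to 2 and 27 to 561. In KO livers (1 and 475) the fit over all groups gave 0 and 42, DESeq2 845 genes and no filter 1079, and leaving out 1 pool 137 to 645. The differences between effects gave 0 to 2 genes with 1 pool left out, for both contrasts. Of all genes, liver minus hepatocytes called from 2 higher and 3 lower to 1732 higher and 1813 lower. Tg minus KO called from 14 higher and 10 lower to 245 higher and 204 lower. The cause of these shifts was not tested.

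Whether replicate numbers pair the samples is not settled by the values: correlations of same-numbered deviations ran from -0.629 to 0.765. As a block, replicate numbers left 1 gene and 21 of all genes in hepatocytes and 1 gene and 44 in Tg livers.

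With 1 pool left out, the log2 count ratio of Col4a1 to Col4a2 differed by -0.01 to 0.09 in hepatocytes, -0.26 to -0.14 in Tg livers and -0.80 to -0.30 in KO livers. Only uncalled log2 values changed sign, each with 1 pool left out. In Tg livers Col4a4 ran from -0.10 to 0.42 and Col4a6 from -0.07 to 0.56. In KO livers Col4a3 ran from -0.21 to 0.20, Col4a5 from -0.36 to 0.08 and Col4a6 from -0.70 to 0.49. The liver minus hepatocyte difference ran from -0.44 to 0.08 for Col4a1 and from -0.18 to 0.33 for Col4a2, and the Tg minus KO difference from -0.42 to 0.09 for Col4a4 and from -0.14 to 1.06 for Col4a6. Col4a2 in Tg livers kept direction and call in every alternative run. Leaving out muscle-bearing pools was not run for KO livers, since no pool met the rule. The rule asked for more than 10 times the median muscle marker sum over both groups. Muscle RNA in all KO pools (18.8 to 98.8 CPM against 0.531 to 1.05 in 6NJ) raised that median. The KO comparison thus has no fit free of muscle RNA.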
